A study of Mus musculus with 8 samples.

Results

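Saa3, Lcn2, Lrg1, Hp, Orm1, Ltf, Itih4, Cp, Serpina3n and Cd14 are 10 genes of the acute phase response that lung tissue can transcribe. They were chosen by name, with earlier results of these data known. All 10 were among the 13854 genes tested, with 17 probe sets whose only gene symbol was one of them. Cp had 8 probe sets and the other 9 genes had 1 each. Each gene is given by whichever of its probe sets had the highest mean signal on the 8 arrays, and the other probe sets of Cp are given beside it.

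Transcripts were measured on single-colour Affymetrix arrays in lobe 1 of the right lung from ICR mice, which are outbred; the animals were males aged 5 to 6 weeks. The mice had received 1 instillation into the trachea, through an incision in the neck, under pentobarbital. The PF68 groups received Pluronic F-68, a surfactant used as the solvent, and the SWCNT groups 0.5 mg of single-walled carbon nanotubes in 50 µl of 0.1% Pluronic F-68. Lungs were taken on day 1 (acute phase) or day 7 (sub-chronic phase), with 2 arrays for each of the 4 groups. All groups thus share the anaesthesia, the incision and the surfactant, and no group without instillation was used here. The 2 arrays of a group are labelled as biological replicates but the animals are not named. The p-values set a group difference against the spread between arrays of the same group, pooled over the 4 groups and moderated across genes. They thus speak only of these arrays, with the precision limited by their number.

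The values are on a scale read as log2, with the same median of -0.628 on every array. The lung markers Sftpc (7.70 to 8.08), Scgb1a1 (8.10 to 8.31) and Ager (7.83 to 7.92) were near the top of the scale on all 8 arrays. RNA integrity was not equal across groups. For beta-actin, the excess of the 3′ over the 5′ probe set, which is larger in degraded RNA, came to 2.01 to 2.04 in PF68 day 1 and 1.31 to 1.36 in SWCNT day 1. It came to 3.25 to 3.29 in PF68 day 7 and 2.94 to 2.99 in SWCNT day 7, and its part in the results below was not tested. The SWCNT day 1 arrays also stood apart by transcripts of other tissues: 7 of 9 skeletal muscle genes and 4 of 7 squamous epithelium genes were higher than in PF68 day 1. In bulk tissue, a change in the number of cells of a type and a change in the RNA per cell cannot be told apart.

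In the acute phase response, interleukin 6, interleukin 1 and related cytokines act through STAT3, C/EBP and NF-kappaB factors to raise the output of secreted proteins, mostly from the liver. Some of these proteins are also made locally by airway epithelium, macrophages and neutrophil precursors. Several of them withhold iron from microbes or protect against free haem iron, others inhibit proteases, and serum amyloid A proteins bind lipoproteins and attract leukocytes.

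The promoters of the 4 members that rose on at least 1 day in SWCNT lungs are shown because these genes carry the rises described below. The 250 bases before the start come from RefSeq (GRCm38.p6), in which 7 of the 10 members were matched and Hp, Orm1 and Cd14 were not. The Saa3 stretch lies at chr7:46715677-46715926 on the minus strand, Lrg1 at chr17:56121947-56122196 on the minus strand, Ltf at chr9:111019042-111019291 on the plus strand and Lcn2 at chr2:32387740-32387989 on the minus strand. The Lrg1, Ltf and Lcn2 stretches end where the annotated gene begins, while that of Saa3 lies inside the span annotated for the gene (chr7:46711998-46719615), before one of its starts. Capitals mark matches on either strand to the STAT motif TTCNNNGAA, the C/EBP motif TTGCNNAA or the NF-kappaB motif (GGG, any 3 bases, then TTCC), and no matches overlapped.
Saa3: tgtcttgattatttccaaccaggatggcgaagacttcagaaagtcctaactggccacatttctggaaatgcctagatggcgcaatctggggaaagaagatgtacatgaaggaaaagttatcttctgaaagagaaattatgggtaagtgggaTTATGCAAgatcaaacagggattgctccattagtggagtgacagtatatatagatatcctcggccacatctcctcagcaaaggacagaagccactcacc
Lrg1: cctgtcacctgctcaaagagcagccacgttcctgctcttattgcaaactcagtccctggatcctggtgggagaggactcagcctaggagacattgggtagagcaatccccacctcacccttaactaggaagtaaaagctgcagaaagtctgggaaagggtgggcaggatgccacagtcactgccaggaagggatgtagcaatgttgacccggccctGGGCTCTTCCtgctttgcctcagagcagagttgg
Ltf: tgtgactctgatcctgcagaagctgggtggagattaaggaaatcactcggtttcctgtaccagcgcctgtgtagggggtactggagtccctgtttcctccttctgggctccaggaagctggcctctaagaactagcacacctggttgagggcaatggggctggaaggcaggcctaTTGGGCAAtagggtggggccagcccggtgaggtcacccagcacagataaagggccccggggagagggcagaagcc
Lcn2: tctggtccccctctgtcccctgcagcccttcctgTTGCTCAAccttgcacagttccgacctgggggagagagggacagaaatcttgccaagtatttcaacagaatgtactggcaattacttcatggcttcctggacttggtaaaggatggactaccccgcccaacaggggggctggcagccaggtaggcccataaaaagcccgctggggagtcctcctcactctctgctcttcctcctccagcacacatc

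Saa3, Ltf and Lcn2 each had a C/EBP match and no other. Counted back from the start, its first base was at -99 in Saa3, -75 in Ltf and -216 in Lcn2. Lrg1 had an NF-kappaB match whose first base was at -34. Of 32851 promoters of the same length, 9.56% held a C/EBP match, 4.65% an NF-kappaB match and 7.02% a STAT match. Among the other members, Itih4 had a STAT match at -51, Serpina3n an NF-kappaB match at -171, and 1 of the 2 promoters of Cp a C/EBP match at -70. A match is a description of letters and was not tied to any measurement of binding.

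The question set by the 4 groups is which of these genes respond to SWCNT on both days. Saa3, Lrg1 and Ltf rose in SWCNT over PF68 lungs on day 1 and again on day 7, Lcn2 rose on day 7, and Itih4 fell on day 1. Hp, Orm1, Cp, Serpina3n and Cd14 passed the test on neither day. A gene is called when its adjusted p is under 0.05 in limma's moderated test (Benjamini-Hochberg over all 13854 genes). On day 1, 4 of 10 members were called, 3 higher and 1 lower, where 2.17% of all genes were called (0.931% called higher, 1.23% called lower). Day 7 had 4 members called, all higher, where 2.18% of all genes were called and 1.4% were higher. Called higher on both days were 3 of 10 members and 17 of all genes tested (0.123%). Because the members were chosen with earlier results of these data known, these shares describe the list and do not test it. The median difference of the 10 members was 0.55 on day 1 and 0.78 on day 7, beside -0.02 and 0.02 over all genes. The calls rest on all 8 arrays. With any 1 array left out, none or nearly none of the members stayed called on both days, and the calls among all genes fell as well. Over these 8 fits the day 7 difference of Saa3 ranged from 1.67 to 1.89 and that of Lrg1 from 1.76 to 1.80, while that of Orm1 ranged from 0.15 to 1.40 and that of Cp from -0.13 to 0.51.

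**Figure D1:**
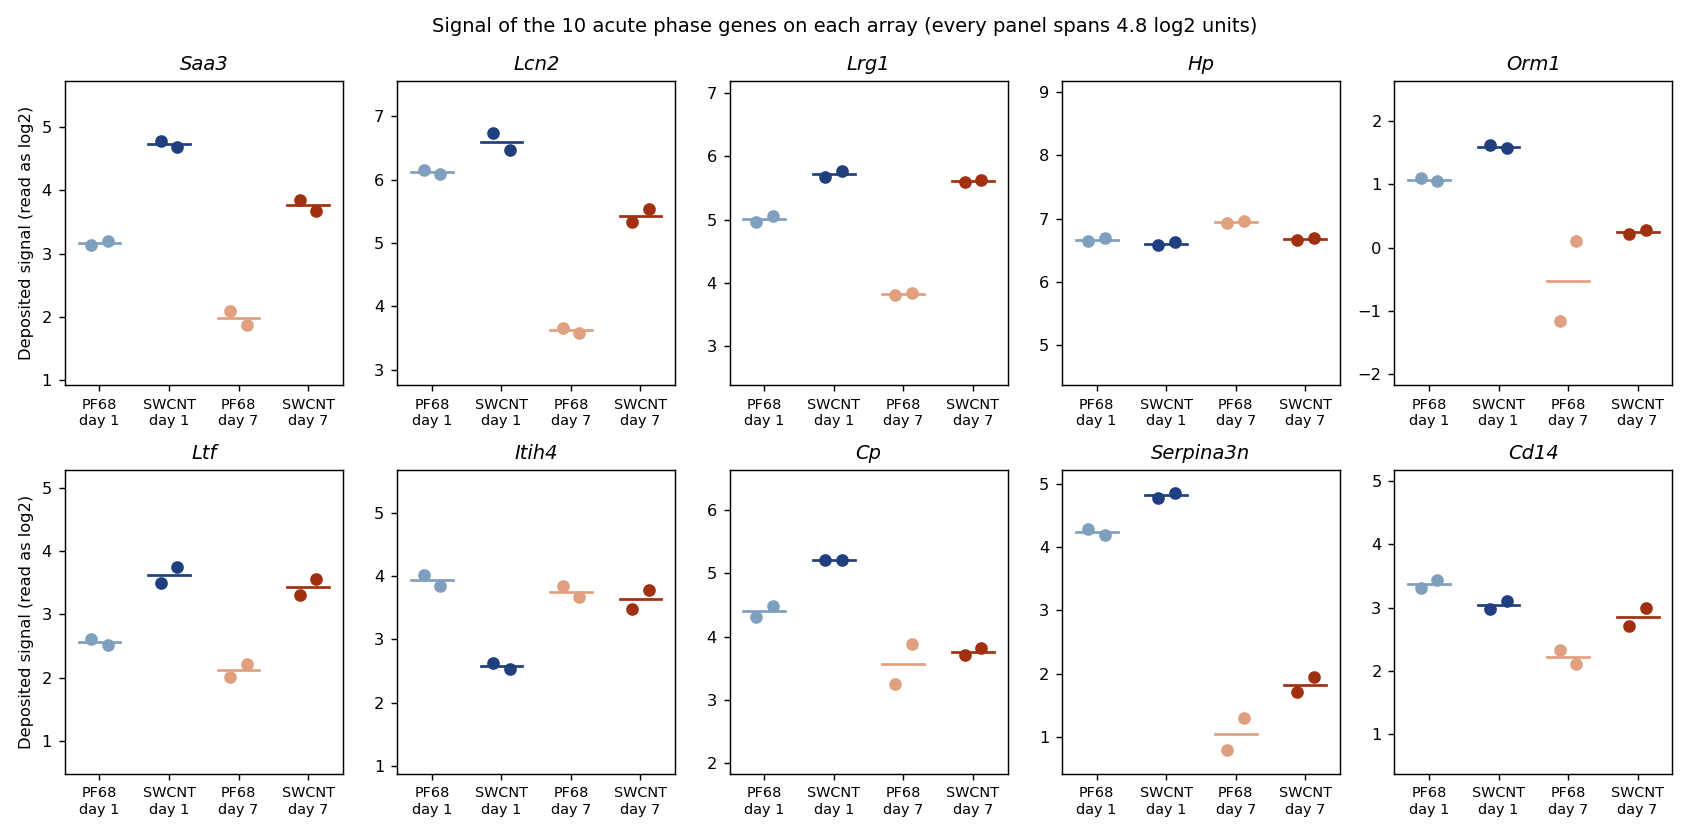
Deposited signal (read as log2, vertical axis) of each of the 10 genes on the 2 arrays of each group (points), with the group mean (bar); every panel spans the same range of log2 units but is placed on its own level. For Saa3, Lrg1 and Ltf the SWCNT points lie above the PF68 points of the same day on both days, and the PF68 points of Serpina3n and Lcn2 lie far lower on day 7 than on day 1.

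Saa3 encodes the serum amyloid A protein that mice make mainly outside the liver. Its signal was 3.13 and 3.20 on the PF68 day 1 arrays, 4.78 and 4.68 in SWCNT day 1, 2.09 and 1.87 in PF68 day 7 and 3.84 and 3.68 in SWCNT day 7. The order from high to low was SWCNT day 1, SWCNT day 7, PF68 day 1 and PF68 day 7, with no overlap between neighbours. The SWCNT effect was 1.57 ± 0.13 on day 1 (log2 difference ± SE, n = 2 arrays per group, 2.96-fold; limma adjusted p = 0.00771) and 1.78 ± 0.13 on day 7 (3.43-fold; limma adjusted p = 0.014). The difference between these effects was 0.21, with a 95% interval of -0.24 to 0.67 (limma adjusted p = 0.563). When 1 array was left out, the day 1 call held in 4 of 8 fits and the day 7 call in 1 of 8, without PF68 day 7 replicate 1.

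Lrg1 encodes leucine-rich alpha-2-glycoprotein, which modulates TGF-beta signalling in endothelium. It read 4.96 and 5.05 in PF68 day 1, 5.68 and 5.77 in SWCNT day 1, 3.81 and 3.85 in PF68 day 7 and 5.60 and 5.62 in SWCNT day 7. The SWCNT arrays of both days lay close together and above all PF68 arrays. The effect was 0.72 ± 0.10 on day 1 (1.64-fold; limma adjusted p = 0.0376) and 1.78 ± 0.10 on day 7 (3.44-fold; limma adjusted p = 0.00899). Here the effects differed between the days, by 1.06 ± 0.15 (limma adjusted p = 0.0366). The SWCNT level itself changed by -0.11 ± 0.10 between the days, while the PF68 level fell by 1.18 on the log2 scale (limma adjusted p = 0.00753). With the arrays scaled to the hybridization spikes, the day 1 difference of Lrg1 was 0.50 and was no longer called. Leaving out any 1 array also ended its day 1 call, at adjusted p-values of 0.0647 to 0.207, and the day 7 call held in 3 of 8 such fits.

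Ltf encodes lactoferrin, an iron-binding protein of neutrophil granules and glandular secretions. The PF68 arrays read 2.61 and 2.52 on day 1 and 2.01 and 2.22 on day 7, and the SWCNT arrays 3.50 and 3.75 on day 1 and 3.31 and 3.55 on day 7. All SWCNT arrays were above all PF68 arrays, and those of the 2 SWCNT groups overlapped. The effect was 1.06 ± 0.16 on day 1 (2.08-fold; limma adjusted p = 0.0392) and 1.32 ± 0.16 on day 7 (2.49-fold; limma adjusted p = 0.0301). The day 7 effect minus the day 1 effect was 0.26, with a 95% interval of -0.28 to 0.80. Leaving out any 1 array ended both calls, at adjusted p-values of 0.0638 to 0.23 on day 1 and 0.0711 to 0.141 on day 7. Both calls were also lost without the filter on low signal and with every passing probe set tested.

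Lcn2 encodes lipocalin 2, which binds bacterial siderophores and so withholds iron. It read 6.15 and 6.09 in PF68 day 1 and 6.73 and 6.47 in SWCNT day 1, against 3.65 and 3.59 in PF68 day 7 and 5.33 and 5.53 in SWCNT day 7. Both PF68 day 1 arrays were thus above both SWCNT day 7 arrays. The effect was 0.48 ± 0.14 on day 1, which was not called (limma adjusted p = 0.16), and 1.81 ± 0.14 on day 7 (3.51-fold; limma adjusted p = 0.014). Leaving out any 1 array ended the day 7 call, at adjusted p-values of 0.0511 to 0.12. The effects differed by 1.33 ± 0.20 (limma adjusted p = 0.041). Of the 10 members, Lcn2 and Lrg1 were called for a difference of effect between the days, both upward, where 2.34% of all genes were called and 1.41% upward. Neither call held in any of the 8 fits that left out 1 array.

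**Figure D2:**
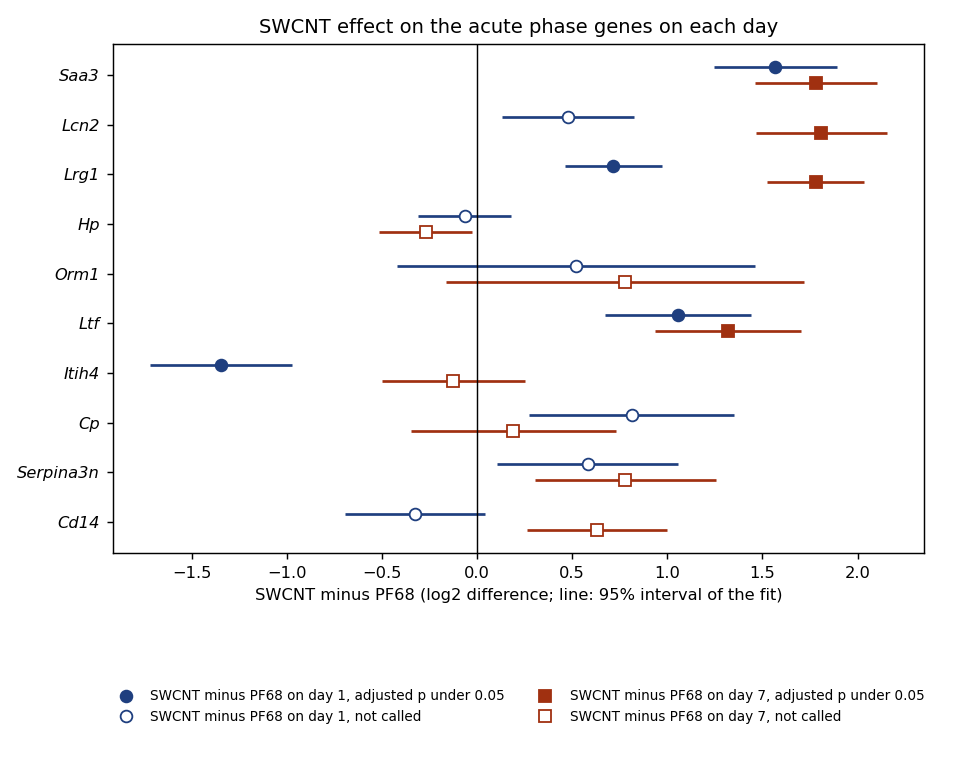
SWCNT minus PF68 difference (log2, horizontal axis) of each gene on day 1 (circles) and day 7 (squares), with the 95% interval of the fit (lines); filled symbols are called. Saa3 and Ltf have overlapping intervals on the 2 days, while Lcn2, Lrg1, Itih4 and Cd14 lie further right on day 7 without overlap. Among these, the difference between the days was called for Lcn2 and Lrg1 only. Itih4 is the member called lower, by -1.35 on day 1.

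Of the protease inhibitor genes, Itih4 encodes a plasma glycoprotein of the inter-alpha-trypsin inhibitor family. It read 4.02 and 3.84 in PF68 day 1, 2.64 and 2.54 in SWCNT day 1, 3.84 and 3.68 in PF68 day 7 and 3.48 and 3.79 in SWCNT day 7. The SWCNT day 1 arrays stood alone below the other 6, which lay within 3.48 to 4.02. The difference was -1.35 ± 0.15 on day 1 (0.393-fold; limma adjusted p = 0.0184) and -0.12 ± 0.15 on day 7 (limma adjusted p = 0.669). The difference of effects, 1.22 ± 0.21, narrowly missed the threshold (limma adjusted p = 0.0519). The day 1 call held in 4 of the 8 fits that left out 1 array, and was lost without any 1 of the 4 day 1 arrays.

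Serpina3n encodes an inhibitor of serine proteases and belongs to a cluster of closely related genes. It read 4.28 and 4.19 in PF68 day 1, 4.78 and 4.85 in SWCNT day 1, 0.79 and 1.30 in PF68 day 7 and 1.70 and 1.94 in SWCNT day 7. The SWCNT arrays were above the PF68 arrays of the same day, by 0.58 ± 0.19 and 0.78 ± 0.19, but neither difference was called (limma adjusted p = 0.197 and 0.0939). The distance between the days was larger than that between the treatments: the day 7 level was lower than the day 1 level by a log2 difference of -3.19 ± 0.19 in PF68 (limma adjusted p = 0.00324) and -2.99 ± 0.19 in SWCNT (limma adjusted p = 0.00383).

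Cp encodes ceruloplasmin, the copper-carrying ferroxidase of plasma, and had the most probe sets. The main one read 4.31 and 4.48 in PF68 day 1, 5.21 and 5.20 in SWCNT day 1, 3.25 and 3.89 in PF68 day 7 and 3.71 and 3.82 in SWCNT day 7. It differed by 0.81 ± 0.22 on day 1 (limma adjusted p = 0.138) and 0.19 ± 0.22 on day 7 (limma adjusted p = 0.647), and was not called on either day. The 3 probe sets next in signal differed on day 1 by 0.83, 0.84 and 0.93, close to the main one, and on day 7 by -0.15, 0.38 and 0.42. With the mean of the 7 passing probe sets in place of the main one, Cp was not called on either day. The remaining 4 were dimmer, and 1 of them lay below the array median on all 8 arrays and did not pass the filter. The dimmer ones that passed differed by 0.31, 0.03 and 0.58 on day 1. On day 7 they differed by 0.16, 0.50 and -0.78.

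**Figure D3:**
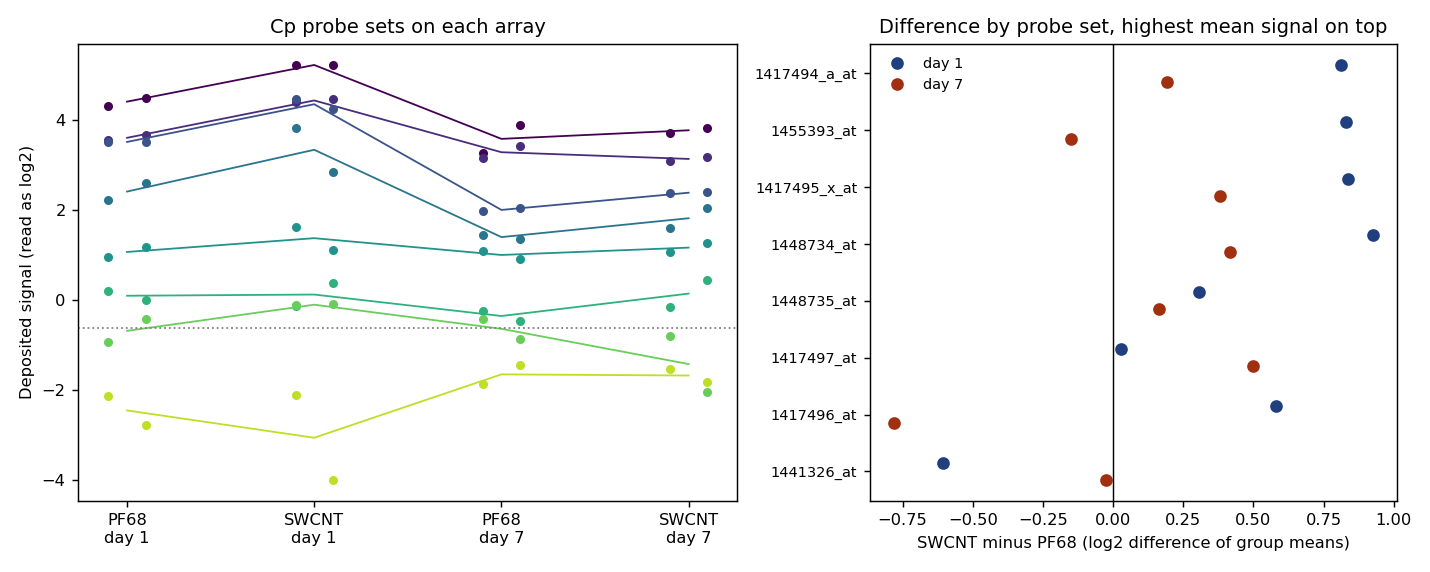
Left, signal (read as log2) of the 8 Cp probe sets on each array (points) with lines through the group means, the dotted line marking the array median; right, their SWCNT minus PF68 difference of group means on each day. The 4 brightest probe sets lie between 0.81 and 0.93 on day 1 and between -0.15 and 0.42 on day 7.

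Haptoglobin, encoded by Hp, binds free haemoglobin. Hp read 6.64 and 6.69 in PF68 day 1, 6.58 and 6.63 in SWCNT day 1, 6.93 and 6.97 in PF68 day 7 and 6.66 and 6.69 in SWCNT day 7. The 8 values lay within 6.58 to 6.97, and the PF68 day 7 arrays were the highest. SWCNT minus PF68 was -0.06 on day 1 (95% interval -0.31 to 0.18) and -0.27 on day 7 (-0.51 to -0.02; limma adjusted p = 0.185), and neither was called.

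Orm1 encodes orosomucoid, an acidic plasma glycoprotein with near-identical gene copies, so its probe set may not separate them. It read 1.10 and 1.05 in PF68 day 1, 1.62 and 1.57 in SWCNT day 1, -1.15 and 0.10 in PF68 day 7 and 0.22 and 0.28 in SWCNT day 7. The 2 PF68 day 7 arrays differed from each other more than any other pair, and 1 of them was below the array median. The SWCNT effect was 0.52 ± 0.38 on day 1 and 0.78 ± 0.38 on day 7 (limma adjusted p = 0.537 and 0.288). Without PF68 day 7 replicate 1 the day 7 value was 0.15, and without replicate 2 it was 1.40.

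Cd14 encodes the co-receptor that hands lipopolysaccharide to Tlr4 and is the only receptor among the members. It read 3.31 and 3.44 in PF68 day 1, 2.98 and 3.11 in SWCNT day 1, 2.33 and 2.12 in PF68 day 7 and 2.72 and 2.99 in SWCNT day 7. SWCNT arrays were below PF68 arrays on day 1 and above them on day 7. The differences were -0.33 ± 0.15 and 0.63 ± 0.15 (limma adjusted p = 0.321 and 0.0873), and that between the days was 0.96 ± 0.21 (limma adjusted p = 0.0806). None of these was called.

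Without regard to calls, the SWCNT arrays were above both PF68 arrays of the same day, on both days, for 6 members (Saa3, Lcn2, Lrg1, Orm1, Ltf and Serpina3n). This held for 7.23% of all genes.

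The vehicle groups themselves differed between the days. From day 1 to day 7 in PF68, 6 members fell, none rose and 4 were not called, where 17.7% of all genes were called, 8.86% lower. Lcn2 fell by 2.50 on the log2 scale (limma adjusted p = 0.0031), Orm1 by 1.60, Saa3 by 1.18 and Cd14 by 1.15, beside the falls of Serpina3n and Lrg1 given above. Cp was lower by -0.83 ± 0.22 and narrowly missed the threshold (limma adjusted p = 0.0529). Its probe sets next in signal changed by -0.32, -1.51 and -1.01, and the dimmer passing ones by -0.45 to 0.04. The mean of its passing probe sets changed by -0.59 and was called (limma adjusted p = 0.0395). In the SWCNT groups 4 members fell from day 1 to day 7 and Itih4 rose by 1.05 ± 0.15 (limma adjusted p = 0.0121), where 16.3% of all genes were called, 6.7% lower and 9.59% higher. Serpina3n fell as given above, Cp fell by 1.45, Lcn2 by 1.17 and Saa3 by 0.97. The Cp probe sets next in signal changed by -1.30, -1.96 and -1.52 here, and the dimmer passing ones by -1.32 to 0.02. Leaving out either PF68 day 1 array cut the calls of the PF68 comparison, among the members and also among all genes. In the SWCNT comparison, leaving out any SWCNT array did the same. Day and RNA integrity moved together: the beta-actin 3′ minus 5′ signal was 3.25 to 3.29 in PF68 day 7 against 2.01 to 2.04 in PF68 day 1. Time since the instillation and these array properties cannot be told apart.

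Of 26 further positive acute phase genes, 15 passed the filter on low signal. On day 1 limma called 0 of these 15, while 6 had an unadjusted p under 0.05. On day 7 it called 3 higher, the metallothionein genes Mt2 (1.70 ± 0.13) and Mt1 (0.92 ± 0.12) and Lbp (0.80 ± 0.12), which encodes the carrier of lipopolysaccharide to Cd14. The list medians were 0.26 and 0.42. Saa1 and Saa2, the serum amyloid A genes of liver, were not called: on day 1 they differed by 1.75 ± 0.37 (limma adjusted p = 0.0866) and 1.51 ± 0.59, in probe sets that can bind related transcripts. Both lay below the array median on average in PF68 day 1. The liver-made Crp and the fibrinogen genes Fga, Fgb and Fgg did not pass the filter. Of the negative acute phase genes, 5 of 8 passed it, and limma called 0 on each day, with 1 and 2 at an unadjusted p under 0.05.

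Of the inducers and signalling genes, 20 of 23 passed the filter. On day 1 only Il6 was called, lower by -0.92 ± 0.15 (limma adjusted p = 0.0499). On day 1 its mean level was 0.24 with PF68 and -0.68 with SWCNT, and on day 7 -1.70 with PF68 and -1.59 with SWCNT, so that 3 of the 4 groups lay below the array median. Il1b, at 0.02 ± 0.16 and 0.24 ± 0.16, and Stat3, at -0.08 ± 0.12 and 0.06 ± 0.12 on the 2 days, were not called. On day 7 limma called 0 of the 20, with 4 at an unadjusted p under 0.05, and the oncostatin M receptor gene Osmr was at 0.79 ± 0.14 (limma adjusted p = 0.0538). From day 1 to day 7 in PF68, Il6 (-1.95 ± 0.15), Nr3c1, Osmr, Stat3 and Cebpd fell. Among 15 measured receptors and partners, limma called 0 on day 1, with 2 at an unadjusted p under 0.05. On day 7 Lbp was higher and Mmp9, whose protein binds lipocalin 2, was lower, with 13 not called. Tlr4 differed by 0.12 ± 0.13 and -0.01 ± 0.13, and Ly96, its partner, by -0.12 ± 0.13 and 0.52 ± 0.13, none of them called.

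Markers of cell types that can hold these transcripts did not all move with them. Lcn2, Ltf and Lrg1 are also transcribed by maturing neutrophils. Of 16 measured neutrophil markers, 1 was lower on day 1 (Ngp, -1.88 ± 0.11) and 15 were not called. On day 7, 5 were lower, 1 higher (Cd177) and 10 not called, with S100a8 at -1.16 ± 0.10, S100a9 at -1.13 ± 0.10 and the collagenase gene Mmp8 at 0.25-fold. The mean level of that list was 1.70 to 1.73 in PF68 day 1, 1.53 to 1.58 in SWCNT day 1, 1.43 to 1.56 in PF68 day 7 and 0.79 to 0.94 in SWCNT day 7. The part of neutrophils in the rise of Lcn2, Ltf and Lrg1 was not tested. Of 13 monocyte and macrophage markers limma called 0 on day 1, with 3 at an unadjusted p under 0.05, and 2 on day 7, Msr1 (2.23 ± 0.36) and Cd68 (1.61 ± 0.10), both higher. The mean level of this list was 2.52 to 2.62 in PF68 day 7 and 2.87 to 3.02 in SWCNT day 7, and its part in the rise of the members was not tested.

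Adipocytes also express Saa3, Hp, Lcn2 and Orm1. Of 6 adipocyte markers 4 were higher on day 1, among them Adipoq (2.90 ± 0.21), and on day 7 none was higher and 1 lower. The list's mean level was 0.73 to 0.95 in PF68 day 1 and 2.78 to 2.83 in SWCNT day 1, then 1.63 to 1.78 in PF68 day 7 and 0.65 to 0.77 in SWCNT day 7. The part of adipocytes in the rise of Saa3 was not tested on either day. Of the hepatocyte list, 8 of 20 genes passed the filter. Cyp2e1, which adipocytes also express, was the 1 gene called in each comparison, at 2.71 ± 0.13 and -1.58 ± 0.13. The mean level of the hepatocyte genes that passed was -0.66 to 0.13 over all arrays, near the array median, and albumin was not called on either day.

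Among airway secretory genes, 2 of 12 were higher on day 1, Bpifa1 (1.90 ± 0.13) and Muc5b, and Cyp2f2 was lower. On day 7 Bpifa1 (-1.38 ± 0.13) and Bpifb1 were lower and 10 were not called. Of 7 fibroblast markers 2 were higher on each day, with Col1a1 at 0.74 and 0.73. Of 9 alveolar type 2 markers limma called 0 on day 1, with 3 at an unadjusted p under 0.05, and Sftpb higher on day 7. Of 6 alveolar type 1 markers it called 0 on day 1, with 2 at an unadjusted p under 0.05, and Pdpn lower on day 7. Of 7 endothelial markers limma called 0 on each day, with 3 and 2 at an unadjusted p under 0.05. Msln was the 1 of 5 mesothelial markers called on day 1, lower by -0.58, and 0 were called on day 7, with 2 at an unadjusted p under 0.05. The skeletal muscle and squamous epithelium lists, high in SWCNT day 1, had 0 of 9 and 0 of 7 called by limma on day 7, with 1 and 0 at an unadjusted p under 0.05.

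**Figure D4:**
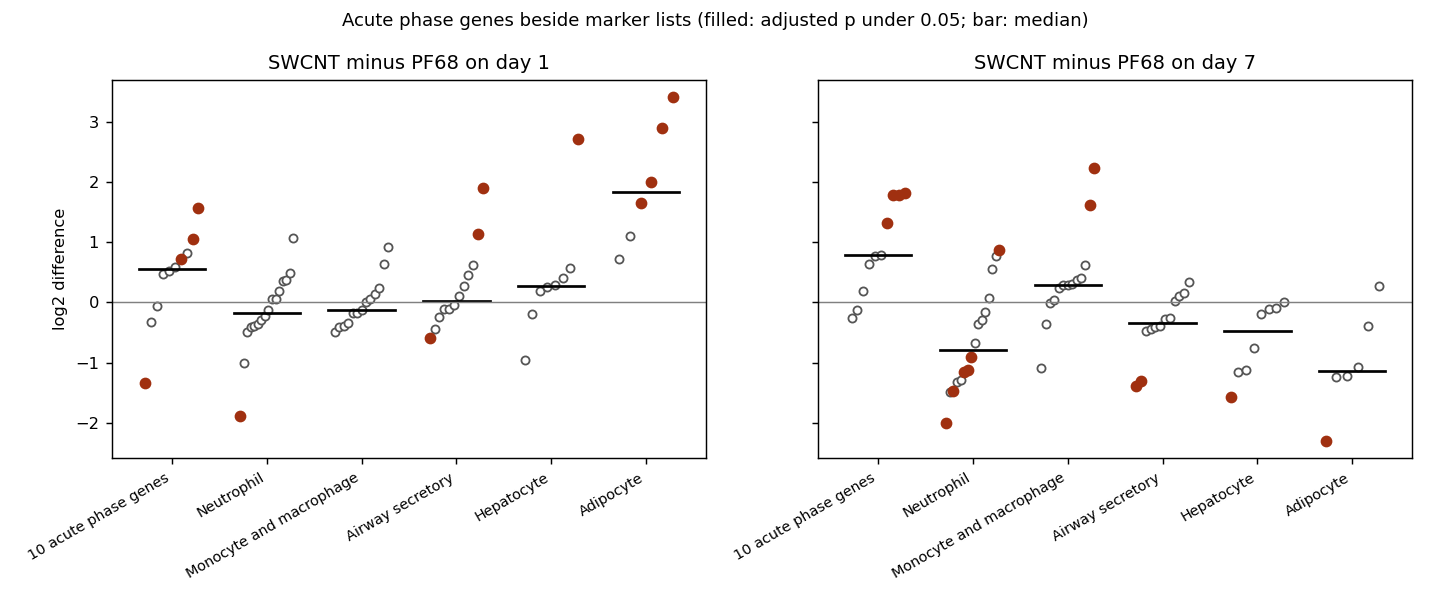
SWCNT minus PF68 difference (log2, vertical axis) of each measured gene of 6 lists on day 1 (left) and day 7 (right); filled points are called and bars are list medians. On day 7 the members' median is 0.78 while that of the neutrophil list is -0.79, and the adipocyte median is 1.82 on day 1 and -1.15 on day 7.

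Genes with a like pattern were found by the root mean square difference from Saa3 or Lcn2 over the 8 arrays, each gene centred on its own mean, among the other 13853 genes. The 5 nearest to Saa3 were Cxcl5 (0.261 log2 units), which encodes a neutrophil chemoattractant, Nrap (0.337), Clca3a1 (0.354), Vegfb (0.362) and Timp1 (0.373), a metalloproteinase inhibitor gene. Of these Cxcl5 was called higher on both days, by 1.74 and 1.67. The 5 nearest to Lcn2 were Mt2 (0.204), Parp4 (0.296), the collagen crosslinking gene Lox (0.335), Prg4 (0.366) and Scara5 (0.392), which encodes a ferritin receptor. Mt2, Parp4, Lox and Prg4 were, like Lcn2, called higher on day 7 and not on day 1. Such shared calls follow in large part from the choice by likeness on the same arrays. The likeness of a pattern also says nothing of a shared control.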

How the data were processed

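Biotin-labelled cRNA of 8 samples was measured on Affymetrix arrays of 1 colour. The authors' deposited table holds 1 value per probe set and array, read as log2 signal; the submitters' processing notes name RMA without a version, and the sources used here give neither log base nor offset. If the base were another, every difference would change by 1 factor, with tests and calls unchanged. Once sorted, the 8 columns were identical. Of 45101 probe sets, 64 controls and 8 with a missing value were left out. By the platform annotation, 34939 of the rest carried 1 gene symbol, 931 several and 9159 were unlisted; RefSeq (GRCm38.p6) held the gene ID of 34735 of the first kind. No background flags were used, so dim means below the array median.

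A probe set was kept if 2 or more arrays put it at the array median or higher (27368, of which 23308 had 1 symbol), and each of 13854 genes took its brightest probe set. A model of 4 group means was fitted in R 4.3.3 by limma 3.58.1, using all 8 arrays (4 residual and 1.81 prior degrees of freedom), with 5 contrasts, Benjamini-Hochberg adjustment over genes and a threshold of 0.05. The SE is from the moderated variance. Counts at an unadjusted p under 0.05 are given without the share of all genes past that level and do not test a list. The procedure was tested on simulated data. Exact permutation tests of 2 against 2 arrays cannot reach the threshold and were not used. The members, gene lists and motifs were chosen with earlier results of these data known. Named are all members, up to 4 called genes of a list with the largest differences, list genes that bear on a member, added after their values were seen, and the 5 genes nearest to Saa3 and to Lcn2. Alternatives covered the filter, the probe set, the scaling, the variance model, array weights, a replicate block, the samples fitted, the threshold and each array left out. Figures were drawn with matplotlib 3.10.9.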

Additional observations from a re-analysis of the deposited data

Results flagged for a closer look

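The SWCNT effect on 2 members differed between day 1 and day 7 in the test of that difference. For Lcn2 the day 7 effect exceeded the day 1 effect by 1.33 log2 units (1.33 ± 0.20, limma adjusted p = 0.041). For Lrg1 the excess was 1.06 (1.06 ± 0.15, limma adjusted p = 0.0366). In both genes the PF68 level was lower on day 7 than on day 1, by a log2 difference of -2.50 for Lcn2 and -1.18 for Lrg1. The SWCNT level changed by -1.17 and -0.11. Of 9 alternatives that kept all 8 arrays, the difference was called in 5 for Lcn2 and in 6 for Lrg1. Both calls were lost without the filter on low values, with every passing probe set tested and with a replicate block. Neither held with any 1 array left out, as given above.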

How the results depend on the processing

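Without a filter on low values, 2 members were called on day 1, 0 for the difference between the days and 1 on both days. Of all genes, 123, 50 and 3 were called there. Testing every passing probe set gave the same 3 counts, 2, 0 and 1, beside 220, 127 and 9 of all probe sets. The mean of all passing probe sets gave 1 for the difference between the days, where 157 of all genes were called. A variance trend with robust estimation gave 7 on day 1, 7 on day 7, 4 for the difference and 5 on both days. Of all genes it called 1254, 1617, 1382 and 210, against 300, 302, 324 and 27 in the main fit. A threshold of 0.1 gave 4 for the difference, where 978 of all genes were called. With a replicate block, the counts were 1 on day 1, 2 on day 7, 0 for the difference and 1 on both days. All genes called then numbered 102, 15, 30 and 2. Lcn2 on day 7 and Ltf on both days were among the calls lost. Same-numbered arrays did not deviate together (r of deviations 0.0114 on day 1 and -0.00238 on day 7 across genes), so the numbers are not taken as pairs. Fitting only the 4 arrays of a contrast gave 0 called members on day 1, on day 7 and on both days. The same held between the days within PF68 and within SWCNT. In these comparisons 5 to 8 members had an unadjusted p under 0.05, given without the share of all genes. Of all genes, such fits called 57 on day 1 and 7 within SWCNT. They called 0 genes on day 7, on both days and within PF68.

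Leaving out 1 array in turn gave 0 to 2 members on day 1, 0 to 2 on day 7, 0 to 0 for the difference, 0 to 1 on both days, 0 to 7 between the days in PF68 and 1 to 6 in SWCNT. All genes called then numbered 30 to 189 on day 1 and 0 to 18 on day 7. Signs turned for 4 uncalled values: Cp on day 7 (-0.13 to 0.51), Itih4 on day 7 (-0.28 to 0.029), and the difference between the days for Orm1 (-0.37 to 0.88) and Serpina3n (-0.056 to 0.45).

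The spike signal differed between SWCNT and PF68 by 0.22 on day 1 and -0.53 on day 7. Scaling to the 18 hybridization spike probe sets subtracts this spike difference from every SWCNT minus PF68 difference. It gave 7 members on day 7, where 5893 of all genes were called, and 8 for the difference between the days, where 6127 were. It turned the sign of Hp on day 7 (0.26), Itih4 on day 7 (0.40), Hp and Cp for the difference between the days (0.54 and 0.12), Hp between the days in PF68 (-0.32) and Lrg1 between the days in SWCNT (0.037). The other causes were not tested. Among the values of single members under an alternative, 704 kept their direction and call, 139 lost the call, 37 gained it and 10 changed sign. Depth here is signal over background, which limits the values of Orm1 and Il6, near or below the array median.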

Other observations

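Hamp encodes hepcidin, a peptide that lowers iron export from cells and that interleukin 6 induces in liver, and Hamp2 is a closely related gene whose probe set can bind related transcripts. Hamp differed by 0.93 ± 0.16 on day 1 and -0.66 ± 0.16 on day 7, and Hamp2 by 1.06 ± 0.29 and -1.42 ± 0.29, none of them called (limma adjusted p from 0.0572 to 0.143). The difference of the SWCNT effect between the days was called for both, at -1.59 ± 0.23 for Hamp (limma adjusted p = 0.0396) and -2.48 ± 0.41 for Hamp2 (limma adjusted p = 0.0483). Its sign is the opposite of that for Lcn2, Lrg1 and Mt2 (1.21 ± 0.19). From day 1 to day 7 within SWCNT, Hamp fell by 1.34 and Hamp2 by 2.27 on the log2 scale. The mean Hamp2 level in SWCNT day 7, -0.94, was below the array median.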
